A study of Mus musculus with 8 samples.

Results

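The classical cadherins are the calcium-dependent receptors of the adherens junction. The 10 genes described here (Cdh1, Cdh2, Cdh3, Cdh5, Cdh6, Cdh11, Cdh13, Cdh15, Cdh16 and Cdh22) were chosen by gene symbol from the 23284 symbols measured. They were followed in ID8 IP2, a mouse ovarian surface epithelial tumor cell line, to ask which cadherin mRNA predominates with and without an active Notch3 receptor, and how each gene differed between the conditions. RNA was sequenced from 8 lines that form 4 matched sets, each with 1 Control and 1 Notch3IC line. Notch3IC lines were infected with a pCCL lentivirus that carries the HA-tagged intracellular domain of Notch3 and, behind an IRES, GFP. Control lines received the empty pCCL vector, and all of the lines also carry luciferase and mCherry. The lines are independent infections of a single parental subline that had been passed through C57BL/6 mice, and the insert is expressed constitutively rather than released from a receptor. Testing done after the experiments pointed to mycoplasma in the lines of both conditions, by the methods of the study. The spread between sets therefore measures variation between infections of 1 cell line.

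A classical cadherin on a cell binds a cadherin on its neighbor through its outermost extracellular repeat, while its cytoplasmic tail holds p120-catenin and beta-catenin, and through alpha-catenin the actin cytoskeleton. E-cadherin (Cdh1) is characteristic of most epithelia. The ovarian surface epithelium and mesothelium are known for N-cadherin (Cdh2), and a shift from E-cadherin to N-cadherin is a textbook feature of epithelial-mesenchymal transition. When a Notch receptor is cleaved, its intracellular domain enters the nucleus, joins the DNA-binding protein Rbpj and activates transcription. Not every gene in the group is a classical cadherin in the strict sense. Cdh13 encodes T-cadherin, which is held by a lipid anchor and has no catenin-binding tail, and Cdh16 encodes kidney-specific cadherin, a 7D cadherin with a short tail.

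The remaining genes belong to type I (Cdh1, Cdh2, Cdh3, Cdh15) or type II (Cdh5, Cdh6, Cdh11, Cdh22). The types differ at the start of the mature first repeat, where a type I cadherin inserts 1 tryptophan into its partner and a type II cadherin inserts 2. The first 12 codons of that repeat are shown for 5 of the genes whose levels are described, because they tell the 2 types apart in the DNA. They run 5′ to 3′ on the coding strand, and capitals mark the in-frame tryptophan codons.
Cdh1: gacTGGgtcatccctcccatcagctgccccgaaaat
Cdh3: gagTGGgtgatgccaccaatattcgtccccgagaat
Cdh15: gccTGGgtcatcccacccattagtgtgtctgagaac
Cdh11: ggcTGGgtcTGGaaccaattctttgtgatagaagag
Cdh22: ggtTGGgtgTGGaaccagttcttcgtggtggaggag
Each stretch is coding sequence and lies within a single exon of GRCm38 (GENCODE M21). The Cdh1 stretch is at chr8:106653582-106653617 on the plus strand, in exon 4 of 16, and that of Cdh3 is at chr8:106536618-106536653 on the plus strand, also in exon 4 of 16. The Cdh15 stretch is at chr8:122856592-122856627 on the plus strand, in exon 2 of 14. On the minus strand, the Cdh11 stretch is at chr8:102679645-102679680 in exon 3 of 13, and that of Cdh22 is at chr2:165180937-165180972 in exon 2 of 12. Cdh1, Cdh3 and Cdh15 hold 1 tryptophan codon in this window, and Cdh11 and Cdh22 hold 2. Of the 10 genes, 7 lie on chromosome 8, where 46.1 kb separate the end of Cdh3 from the start of Cdh1. No exon of the 10 genes overlaps an exon of another gene, and their transcripts share no stretch of 100 bases, the read length, with another gene.

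The depth of a library was 15524262 to 28208072 counts. For Notch3 itself the Control libraries (always in the order of Sets 1 to 4) held 39, 34, 74 and 53 counts, and the Notch3IC libraries held 3864, 319, 10026 and 6915. These counts do not separate the insert from the endogenous gene. Every Notch3IC library lay above every Control library, and the labels thus held in all 8 libraries. The Notch3 ratio within a set, on the log2 scale, was 6.79, 3.51, 7.01 and 7.11 in Sets 1 to 4, so that Set 2 carried the smallest difference. The Notch target genes Hey1, Heyl and Nrarp were called higher (log2 fold changes 7.35, 11.56 and 7.34, edgeR adjusted p = 0.0169 for each). Heyl had at most 2 counts in a Control library and passed the expression filter on the Notch3IC libraries alone. The size of its fitted fold change depends on the prior count. For Hey1 and Nrarp the smallest within-set ratio was again that of Set 2 (4.39 and 4.45 on the log2 scale). Heyl had 0 counts in the Control libraries of Sets 2 and 4, so its set ratios are not ranked, and its lowest Notch3IC count was the 147 of Set 2.

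Of the 10 cadherin genes, 6 passed the expression filter and were tested with edgeR's quasi-likelihood test, whose p values were adjusted by Benjamini-Hochberg across the 12430 genes that passed. To be called, a gene needed an adjusted p below 0.1 together with a log2 fold change of 1 or more in either direction. The same limits stand in the study's methods. Cdh11, Cdh15 and Cdh22 were called higher in Notch3IC lines, and no member was called lower. DESeq2 gave the same counts of 3 and 0. At an unadjusted p under 0.05 edgeR had the same 3 members higher and 1 lower, Cdh3, among the 6 tested. That limit was met by 2289 of the 12430 genes, both directions together. Of all genes tested, 3.4% were called higher and 0.74% lower. With the matched set as a replicate block the same 3 genes were called higher and again none lower, against 5.19% and 2.53% of all genes. The Notch3IC libraries all lay above the Control libraries for 3 of the 6 genes and all below them for 1 (Cdh3), against 7.08% and 3.75% of all genes tested. Cdh15 reached the minimum of the filter in 0 of 4 Control and 4 of 4 Notch3IC libraries, so it was tested only because it was high in Notch3IC and could add only to the higher side of these counts. Cdh22 reached the minimum in 3 of 4 Control and 4 of 4 Notch3IC libraries, and the filter needed 4. It would not have passed on the Control libraries alone, so it too was tested through the condition in which it was high. In these bulk samples, fewer cells that express a gene and less RNA per cell cannot be told apart.

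**Figure D1:**
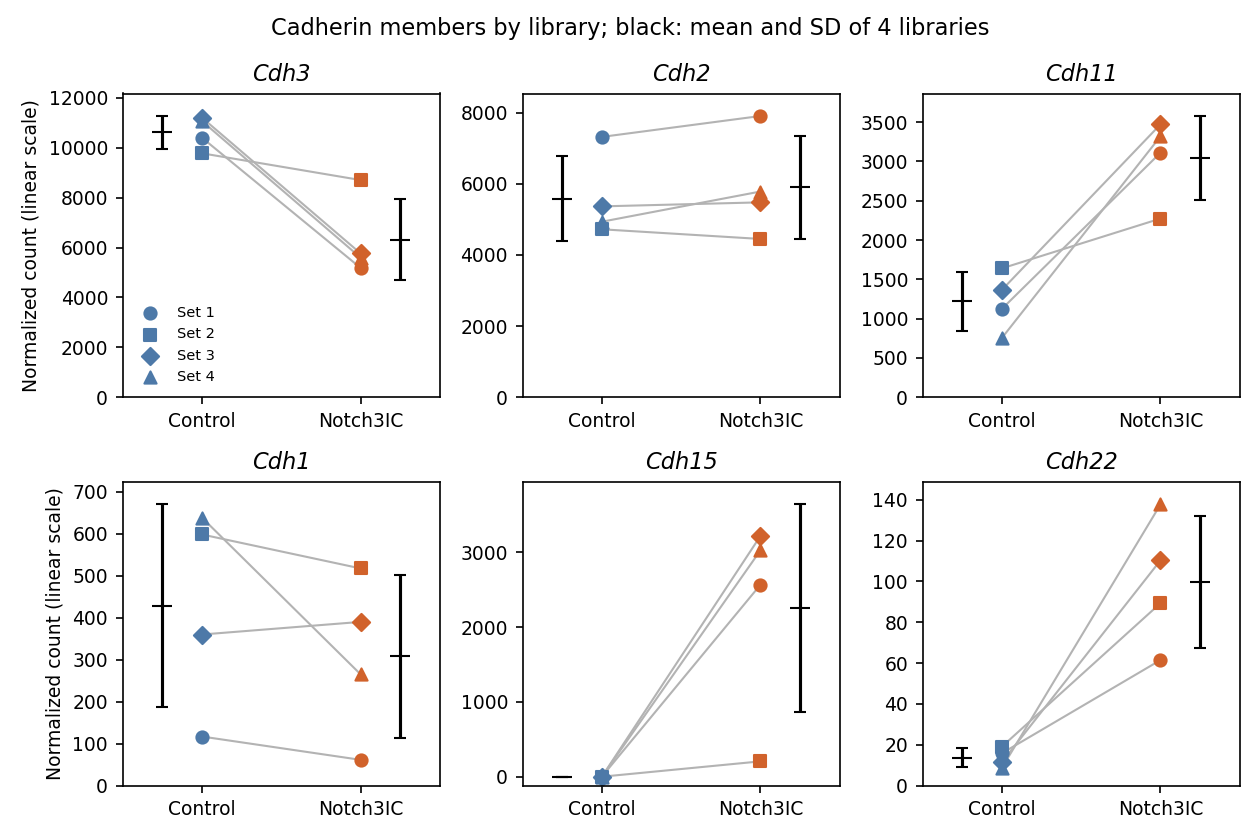
Normalized counts (linear vertical axes) of 6 cadherin genes in the Control and Notch3IC library of each set, with the libraries of a set joined by a line; black bars give the mean and SD of 4 libraries. Cdh3 was lower in Notch3IC in all 4 sets, Cdh11, Cdh15 and Cdh22 were higher in all 4, and for Cdh2 and Cdh1 the conditions overlapped.

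P-cadherin (Cdh3), a type I cadherin known from basal epithelial layers and placenta, was the member with the highest level per kilobase in Control cells. Control libraries held 10494, 8192, 11711 and 13964 Cdh3 counts, and Notch3IC libraries held 4636, 5942, 6270 and 6624. Normalized to a common library size, these were 10616 ± 659 in Control and 6313 ± 1614 in Notch3IC (mean ± SD, n = 4). All Notch3IC libraries lay below all Control libraries, and the Notch3IC library of Set 2, at 8707 normalized counts, was closest to the Controls. The log2 fold change was -0.75 (SE 0.17, edgeR adjusted p = 0.0497), with a 95% interval from -1.13 to -0.37. Cdh3 therefore passed the adjusted p threshold without reaching the fold-change limit. Within Sets 1, 3 and 4 the log2 ratios were -1.005, -0.96 and -0.98, and in Set 2 the ratio was -0.17. Leaving out a library of Set 3 or 4 gave an edgeR adjusted p of 0.148 to 0.169, and leaving out the whole of Set 3 or Set 4 gave 0.378 or 0.461. The log2 fold change was -0.68 without Set 1, -0.98 without Set 2 (edgeR adjusted p = 0.00572), -0.68 without Set 3 and -0.67 without Set 4.

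N-cadherin (Cdh2), which joins mesothelial, neural and mesenchymal cells, had 7381, 3954, 5605 and 6223 counts in the Control libraries and 7069, 3036, 5957 and 6845 in the Notch3IC libraries. The normalized means of 5584 ± 1187 and 5904 ± 1452 differed by less than either SD. The log2 fold change was 0.080 (SE 0.20, edgeR adjusted p = 0.886), with a 95% interval from -0.38 to 0.54, and the set ratios were 0.11, -0.085, 0.030 and 0.23. Under the replicate block by matched set the log2 fold change was 0.072 (SE 0.068, edgeR adjusted p = 0.483), and the 95% interval narrowed to -0.094 to 0.24.

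E-cadherin (Cdh1) was present at low levels in all 8 libraries. It had 118, 501, 376 and 805 counts in Control and 55, 353, 424 and 314 counts in Notch3IC. The normalized means were 428 ± 241 and 308 ± 194, and the conditions overlapped. The spread came largely from the sets, since both libraries of Set 1 held fewer Cdh1 reads than any of the others. The log2 fold change was -0.48 (SE 0.65, edgeR adjusted p = 0.764). With condition alone, its 95% interval from -1.96 to 1.01 was the widest among Cdh1, Cdh2, Cdh3, Cdh11 and Cdh22. Under the replicate block by matched set the log2 fold change was -0.55 (SE 0.25, edgeR adjusted p = 0.176). The 95% interval then narrowed to -1.16 to 0.065. Within sets the log2 ratios were -0.92, -0.21, 0.12 and -1.27.

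The ratio of Cdh2 to Cdh1 counts, in which gene length cancels between conditions, was higher in the Notch3IC than in the Control library in 3 of 4 sets. On the log2 scale it was 3.95 ± 1.41 in Control and 4.59 ± 1.69 in Notch3IC, a difference of 0.64 (exact permutation test, two-sided, p = 0.514). Set 1 had the highest ratios of both conditions, 62.3 in Control and 127 in Notch3IC. In Sets 2 to 4 the ratio lay between 7.73 and 21.8. Within Sets 1 to 4 the log2 ratio differed by 1.03, 0.12, -0.085 and 1.49. Leaving out Set 1 as a pair gave a mean difference of 0.51, an alternative chosen after seeing the data, and leaving out its Notch3IC library alone and keeping its Control library gave -0.16.

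OB-cadherin (Cdh11), a type II cadherin of osteoblasts and other mesenchymal cells, rose in Notch3IC cells. Control libraries held 1133, 1373, 1426 and 950 counts and Notch3IC libraries 2781, 1551, 3775 and 3929. The normalized means were 1220 ± 376 and 3043 ± 535, and the conditions did not overlap. Cdh11 was 2.50-fold higher, with a log2 fold change of 1.32 (SE 0.24, edgeR adjusted p = 0.0298). The set ratios were 1.47, 0.47, 1.35 and 2.14 on the log2 scale, all positive and smallest in Set 2. Without the Control library of Set 3 the edgeR adjusted p was 0.104 with a log2 fold change of 1.38, and without all of Set 3 or of Set 4 it was 0.246 or 0.240, with log2 fold changes of 1.31 and 1.11. Without Set 1 the log2 fold change was 1.27 (edgeR adjusted p = 0.0881), and without Set 2 it was 1.61 (edgeR adjusted p = 0.0105).

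M-cadherin (Cdh15), a type I cadherin known from skeletal muscle precursors, was nearly undetected in Control cells. It had 2, 0, 1 and 1 counts in the Control libraries and 2296, 140, 3502 and 3584 in the Notch3IC libraries. Over the 4 libraries of each condition the summed and depth-corrected counts differed 2569-fold, with an exact 95% interval from 1003 to 9431 that covers counting error only. Within Set 1 the ratio was 1295 (95% counting interval 358 to 10699), and in Sets 3 and 4 it was 3365 (603 to 132930) and 3819 (685 to 150890). In Set 2, where the Control library had no count, Cdh15 was at least 57.3-fold higher against a floor of 3 counts in that library. Cdh15 rose in the edgeR fit (adjusted p = 0.0151), in which the size of the fitted log2 fold change, 11.02, depends on the prior count. The normalized level spanned 205 to 3220 among Notch3IC libraries, and the Set 2 library, lowest for Notch3, was also the lowest here.

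Cdh22, a type II cadherin, rose from a low level. Control libraries held 16, 16, 12 and 11 counts and Notch3IC libraries 55, 61, 120 and 163, without overlap. The normalized means were 13.8 ± 4.60 and 99.7 ± 32.3, a 7.27-fold difference (log2 fold change 2.86, SE 0.35, edgeR adjusted p = 0.0169). The set ratios were 1.92, 2.19, 3.21 and 3.92 on the log2 scale. For Cdh22, unlike Cdh3 and Cdh11, the smallest ratio was in Set 1 and not in Set 2.

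The calls of Cdh15 and Cdh22, like that of Cdh11, were lost when both libraries of Set 3 or of Set 4 were left out. Their edgeR adjusted p values were then 0.215 to 0.221, while the log2 fold changes stayed at 10.79 and 10.75 for Cdh15 and at 2.73 and 2.49 for Cdh22. In the whole table, 1 gene was called without Set 3 and 0 without Set 4, with 1101 and 1011 genes at an unadjusted p under 0.05 in edgeR.

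**Figure D2:**
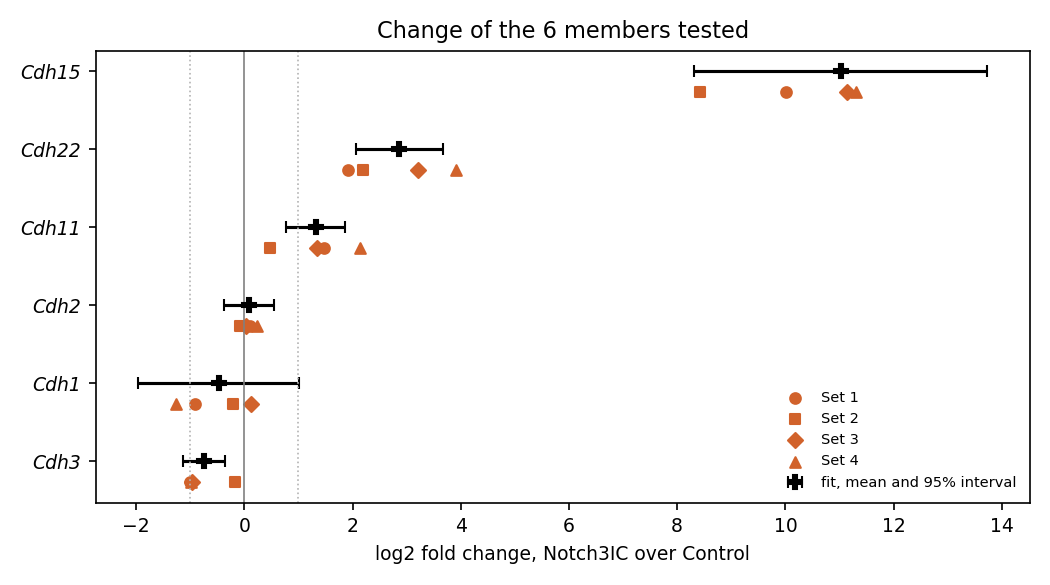
Log2 fold change of Notch3IC over Control for the 6 cadherin genes tested; black crosses give the edgeR fit with its 95% interval, orange symbols the ratio within each set (pseudocount 0.5), dotted lines the fold-change limit. The intervals of Cdh11, Cdh15 and Cdh22 lie above 0, that of Cdh3 (-1.13 to -0.37) below it, and those of Cdh1 and Cdh2 span it; the position of Cdh15 depends on the pseudocount and prior count.

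The other 4 members were near the limit of detection in both conditions. VE-cadherin (Cdh5), which joins endothelial cells, had 3 counts in 2 libraries. K-cadherin (Cdh6), known from kidney and some ovarian carcinomas, had 0 counts, Cdh13 had 1, and Cdh16 had 2. These are out of 186689224 reads counted on genes in all 8 libraries, where 3 counts correspond to 0.0161 CPM (counts per 1e+06 counts). In a single library, 3 counts correspond to 0.106 to 0.193 CPM.

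To compare levels between genes, normalized counts were divided by the exon length of each gene in kilobases. On this scale the Control order was Cdh3, Cdh2, Cdh11, Cdh1 and Cdh22, at 2422 ± 150, 692 ± 147, 137 ± 42.2, 93.6 ± 52.7 and 3.73 ± 1.24 normalized counts per kilobase. Cdh15 followed at 0.287. The ranges of neighbors in this order were apart except for Cdh11 and Cdh1, where Cdh11 was the higher in 3 of 4 libraries, and for Cdh15 and the genes below it. In Notch3IC cells the order by mean level per kilobase was Cdh3 (1440 ± 368), Cdh2 (732 ± 180), Cdh15 (694 ± 429), Cdh11 (342 ± 60.1), Cdh1 (67.4 ± 42.4) and Cdh22 (26.9 ± 8.71). Cdh2, Cdh15 and Cdh11 overlapped as neighbors, and so did Cdh1 and Cdh22, while on the exon length Cdh3 lay above Cdh2 and Cdh11 lay above Cdh1 in every library. Cdh2 was the second member in all 4 Control libraries and in the Notch3IC libraries of Sets 1 and 2, and Cdh15 was second in those of Sets 3 and 4. This place of Cdh15 held with the exon length alone. With the longest transcript, the coding length or no length correction, Cdh2 and Cdh3 held both leading places in all 8 libraries, and with the coding length or no length correction the mean of Cdh11 in Notch3IC lay above that of Cdh15.

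P-cadherin made up 72.3% ± 2.73 of the summed level per kilobase of the 10 genes in Control (range 69.0 to 75.1) and 44.3% ± 14.7 in Notch3IC (n = 4 each). In the Notch3IC libraries of Sets 1 to 4 its share was 35.5, 66.4, 37.7 and 37.6%. The difference of -28.0 percentage points gave p = 0.0286 in an exact permutation test (two-sided), the smallest value that 4 against 4 libraries allow. With the matched sets as pairs the exact sign-flip p was 0.125, also the smallest possible. On the exon length, Cdh15 took 20.4% of the summed level in Notch3IC (range 2.11 to 28.4) against 0.00838% in Control. The share of Cdh11 was 4.12% in Control and 10.3% in Notch3IC, that of Cdh2 20.6% and 22.1%, that of Cdh1 2.83% and 2.08%, and that of Cdh22 0.112% and 0.814%. Type II cadherins together held 4.24% in Control (range 2.58 to 6.03) and 11.1% in Notch3IC (range 9.33 to 12.1), without overlap. These shares are on the exon length and depend on the length used. With no length correction the mean of Cdh11 was 1220 of a summed 17865 in Control and 3043 of 17925 in Notch3IC. Cdh15 was then at 2255 in Notch3IC, below Cdh11.

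The summed level itself differed little between the conditions. It was 3349 ± 147 normalized counts per kilobase in Control and 3302 ± 216 in Notch3IC, with log2 ratios of -0.045, -0.067, 0.013 and 0.012 within Sets 1 to 4.

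**Figure D3:**
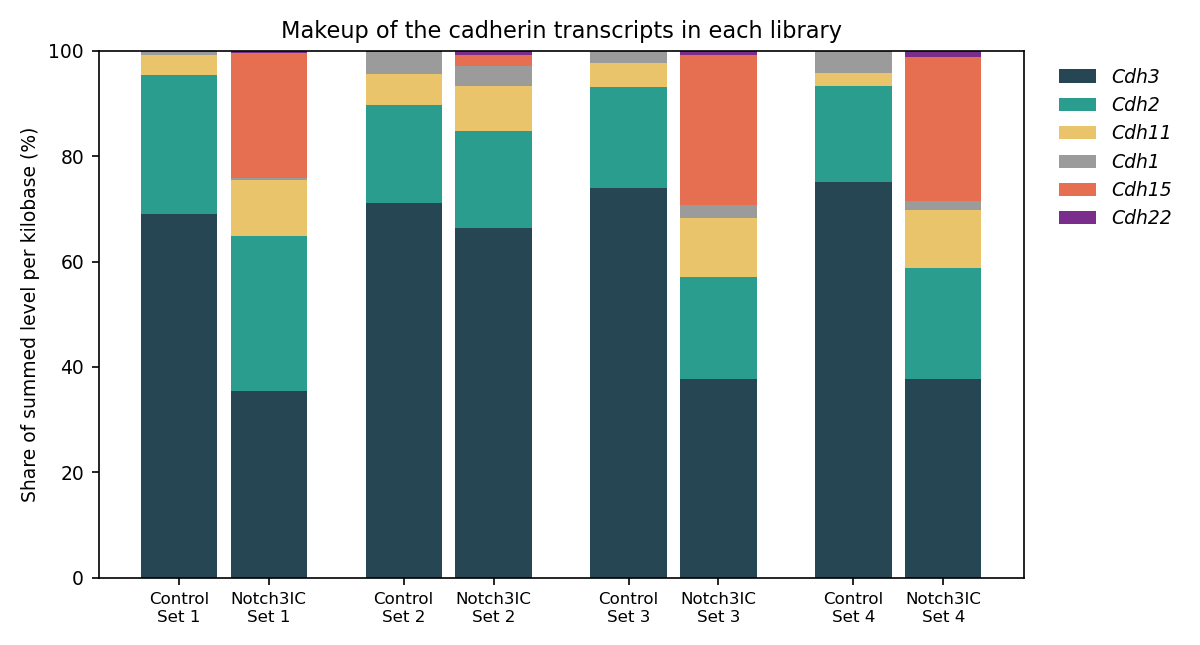
Share of each cadherin (percent) in the summed length-scaled level of the 10 genes, for the Control and Notch3IC library of each set; Cdh5, Cdh6, Cdh13 and Cdh16 are too low to show. Cdh3 holds 69.0 to 75.1% in Control and 35.5 to 66.4% in Notch3IC, where Cdh15 fills 2.11 to 28.4%.

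The lead of Cdh3 in Notch3IC cells depended on the gene length used. In Control, Cdh3 led in 4 of 4 libraries with the exon length, the longest transcript, the coding length or no length correction. In Notch3IC it led in 4 of 4 libraries with the exon length and in 3 of 4 with the longest transcript or the coding length, where Cdh2 led in Set 1. With no length correction Cdh3 led in 2 of 4, and Cdh2 led in Sets 1 and 4. By mean level per kilobase of exon, the log2 ratio of Cdh3 to Cdh2 was 1.81 in Control and 0.98 in Notch3IC. By contrast, the share of Cdh3 was lower in Notch3IC on every one of these scales, by 23.7 to 28.0 percentage points.

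Set 2 stood apart from Sets 1, 3 and 4 in several members. Its Notch3IC library had the lowest Notch3 count, the highest Cdh3 level and the lowest Cdh11 and Cdh15 levels among the Notch3IC libraries. No correlation with Notch3 is given, since its ratios in the other 3 sets (6.79 to 7.11 on the log2 scale) lay close together.

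**Figure D4:**
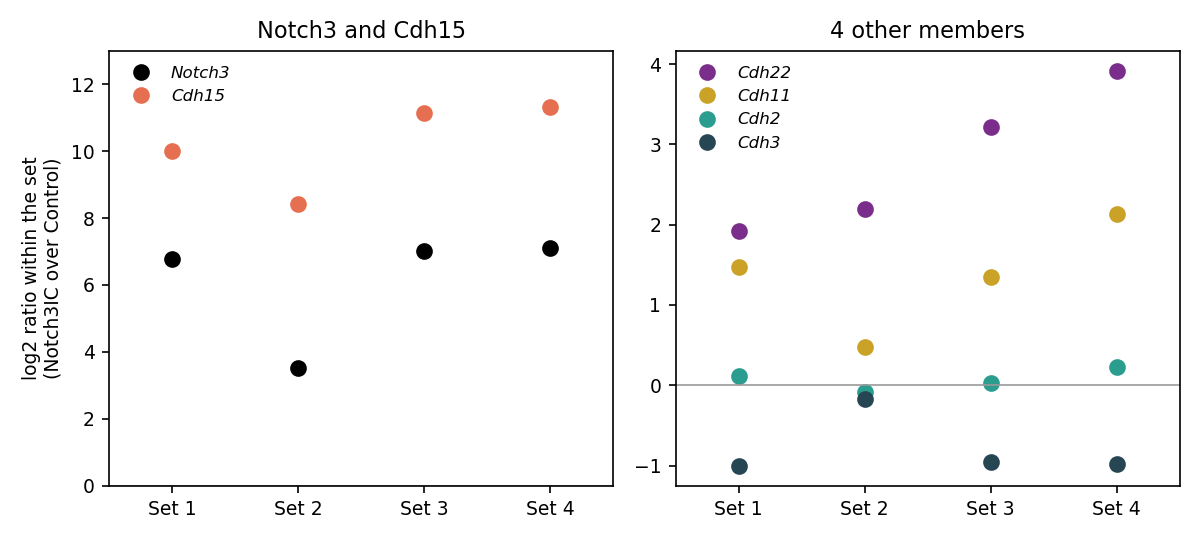
Log2 ratio of the Notch3IC to the Control library within each set, for Notch3 and Cdh15 (left) and for 4 other cadherin genes (right), with a pseudocount of 0.5 counts. The Notch3 ratio is lowest in Set 2 (3.51), where Cdh11 and Cdh3 are also closest to 0 and Cdh22 (2.19) is not; the Control library of Set 2 had 0 Cdh15 counts, and that point depends on the pseudocount.

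For each called member and for Cdh3, the 3 genes whose log2 normalized level followed it most closely over the 8 libraries were found by Pearson correlation. These values describe the same libraries, with the 2 conditions among them. Cdh15 was followed by Pde1b (r = 0.999), a calmodulin-dependent phosphodiesterase, by the Notch target Heyl (0.997) and by Col15a1 (0.997), a basement membrane collagen. Cdh11 was followed by Irgq (0.993), Ext2 (0.991), a heparan sulfate polymerase, and Wdr96 (0.984). Cdh22 was followed by Fam176a (0.992), the alkaline phosphatase gene Alpl (0.990) and Nov (0.985), a CCN-family matrix protein. Cdh3 was followed by LOC434205 (0.996), the inositol phosphate kinase gene Itpk1 (0.994) and Mal2 (0.993), which codes for a protein of apical transport in epithelia. Of these genes, those that followed Cdh15 and Cdh22 were all called higher and those that followed Cdh3 were all called lower, at log2 fold changes of -1.98, -1.06 and -1.55. These directions follow from the choice of genes by correlation with members that differed between the conditions, so they add nothing to the members' results. Pde1b, Heyl and Col15a1 had at most 6 counts in a Control library and passed the expression filter on the Notch3IC libraries alone. Nov would not have passed it on the Control libraries alone. The 3 that followed Cdh11 did not reach the fold-change limit (0.30, 0.37 and 0.46). Irgq and Wdr96 also missed the adjusted p threshold (edgeR adjusted p = 0.127 and 0.197), which Ext2 passed (0.0802).

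Genes that act with cadherins were read from the same fit, in which 3.4% of all genes tested were called higher and 0.74% lower. With the replicate block these shares were 5.19% and 2.53%. The counts called in these lists and in the marker lists below stand against the same shares. Among 13 further cadherin-family genes, 3 were tested and 0 called by edgeR or DESeq2. The count at an unadjusted p under 0.05 in edgeR was 1 (Cdh24), against 2289 of all 12430 genes tested. Of the 13, 7 had 0 counts in every library. Cdh24, a type II cadherin, was the most abundant, at a normalized level of 307 ± 20.8 in Control cells and 481 ± 91.7 in Notch3IC cells, a log2 fold change of 0.65 (SE 0.15, edgeR adjusted p = 0.0591). Its libraries did not overlap between conditions, and it stayed under the fold-change limit.

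Of the catenins and other partners of the cadherin tail, 16 were measured, 13 tested, 1 called higher and 0 called lower, with a median log2 fold change of 0.081. Arvcf, a relative of p120-catenin, rose (log2 fold change 3.21, SE 0.82, edgeR adjusted p = 0.0737). Control libraries held 141, 101, 212 and 146 Arvcf counts, and 318, 138, 3503 and 1873 were found in the Notch3IC libraries. The rise was carried by Sets 3 and 4, and the conditions overlapped after normalization. The edgeR call of Arvcf was lost at an adjusted p under 0.05 and without all of Set 1, Set 3 or Set 4. It was also lost when any 1 of Control replicates 1 to 4 or Notch3IC replicates 3 and 4 was left out. Beta-catenin (Ctnnb1), the most abundant of the list, had normalized levels of 15956 ± 1417 in Control cells and 18183 ± 919 in Notch3IC cells, a log2 fold change of 0.19 (edgeR adjusted p = 0.378). p120-catenin (Ctnnd1) had a log2 fold change of 0.56 at an edgeR adjusted p of 0.0738, under the fold-change limit.

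The nectins and nectin-like receptors are immunoglobulin-type adhesion molecules that share junctions with cadherins. Of 9 measured, 8 were tested and 0 were called by edgeR, with a median log2 fold change of -0.59. At an unadjusted p under 0.05 edgeR had 2 higher and 2 lower, against 2289 of all 12430 genes tested in both directions together. DESeq2 called 1. With the replicate block 3 were called, namely Pvrl4 (-1.11) and Cadm1 (-1.50) lower and Cadm4 (1.56) higher. Pvrl2 (nectin-2), the most abundant, had normalized levels of 4665 ± 892 in Control cells and 2828 ± 856 in Notch3IC cells, with a log2 fold change of -0.72 (SE 0.25, edgeR adjusted p = 0.160).

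Transcription factors known to repress or sustain E-cadherin gave 3 called higher and 0 lower among 11 tested of 17 measured, with a median log2 fold change of 0.48. The 3 were the E-cadherin repressors Snai2 and Zeb2 and the E-box factor Tcf4. Snai2 had 467, 491, 458 and 451 counts in Control and 2067, 745, 3114 and 3336 in Notch3IC, without overlap (log2 fold change 2.30, SE 0.31, edgeR adjusted p = 0.0169). Zeb2 was the most abundant of the list and had normalized means of 1935 ± 195 and 4619 ± 1695 (log2 fold change 1.26, edgeR adjusted p = 0.0486). Its Notch3IC library of Set 2, at 2192, lay within the Control range. Tcf4 had means of 698 ± 114 and 1954 ± 545 (log2 fold change 1.49, edgeR adjusted p = 0.0217). With the replicate block 5 were called, the additional ones being Klf4 (-1.47) and Elf3 (-1.09), both lower. DESeq2 called 6. In edgeR 1 was called without Control replicate 3, and 0 were called without all of Set 3 or of Set 4. E-cadherin itself was not called in either fit (block log2 fold change -0.55, edgeR adjusted p = 0.176).

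For genes of cadherin cleavage, turnover and trafficking, 1 was called higher and 1 lower among 18 tested of 20 measured, with a median log2 fold change of 0.066. Mmp14, a membrane-anchored collagenase, rose, with normalized levels of 5584 ± 996 in Control cells and 13461 ± 5543 in Notch3IC cells (log2 fold change 1.27, edgeR adjusted p = 0.0604), and was highest in Sets 3 and 4. Ptprf, a receptor tyrosine phosphatase that associates with cadherin complexes, fell by 2.15 on the log2 scale (edgeR adjusted p = 0.0749). The 1931, 515, 3187 and 2928 counts of the Control libraries stood against 398, 131, 885 and 382 counts in the Notch3IC libraries, lower in 4 of 4 sets, though the conditions overlapped because of the low Control library of Set 2. With the replicate block 3 were called, the additional one being Mmp3 (-1.37), lower. In edgeR 0 were called at an adjusted p under 0.05, and 0 without Control replicate 3, Control replicate 4 or Notch3IC replicate 4. Leaving out all of Set 3 or of Set 4 also gave 0. The calls of Mmp14 and Ptprf were thus lost in each of these cases. The sheddase Adam10, which cuts cadherins outside the membrane, was not called.

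**Figure D5:**
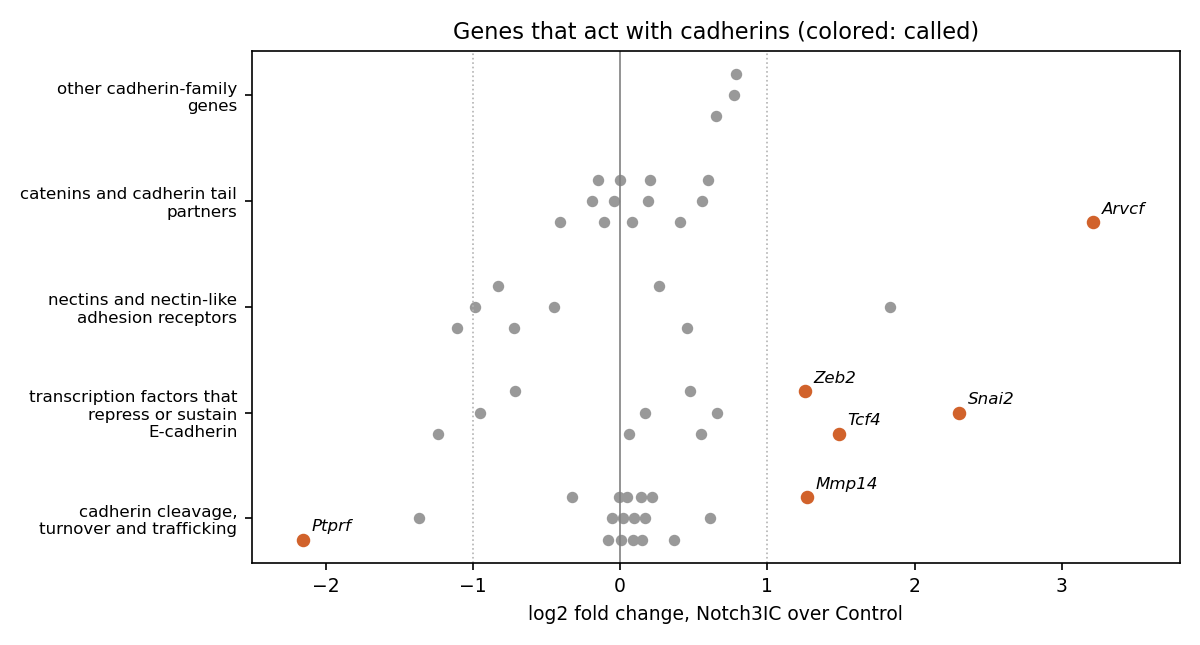
Log2 fold change of Notch3IC over Control for each tested gene in 5 lists of genes that act with cadherins; orange points are called, gray points are not, dotted lines mark the fold-change limit, and vertical scatter within a list has no meaning. The called genes are Arvcf, Zeb2, Snai2, Tcf4 and Mmp14, to the right, and Ptprf (-2.15), to the left.

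The labelled tissue was compared with its markers. Of 10 symbols for ovarian surface epithelium and mesothelium, 9 were measured and 7 tested. Upk3b was the most abundant, and Wt1, Krt8, Krt18, Krt19, Lrrn4 and Msln were present in every library. Krt7 was low, with 60 counts over the Control libraries, 46 of them in Set 3, and 6 over the Notch3IC libraries. Pax8 had 6 and 6, and Muc16 was not analysed here. The summed normalized level of the list in Sets 1 to 4 was 21960, 41304, 66193 and 63793 in Control and 7029, 26352, 24471 and 18833 in Notch3IC, lower in Notch3IC in 4 of 4 sets. One gene, mesothelin (Msln), was called lower (log2 fold change -2.60, edgeR adjusted p = 0.0625), and the median was -1.64. With the replicate block 4 were called lower, the additional ones being Krt19 (log2 fold change -2.10), Upk3b (-1.98) and Lrrn4 (-1.91). This list moved with Cdh3, and its part in the result for Cdh3 was not tested.

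Of 8 fibroblast and mural markers, 6 were tested and 2 called higher, Pdgfrb (5.99) and Cspg4 (4.20, log2 fold changes, edgeR adjusted p = 0.0169 for each). With the replicate block 5 were called higher, the additional ones being Col1a1 (log2 fold change 1.04), Col1a2 (1.15) and Acta2 (1.45). Col1a1 was the most abundant, and the median log2 fold change was 1.19. The summed level of the list was 203340, 131220, 96020 and 70814 in the Control libraries and 410210, 169290, 217910 and 257280 in the Notch3IC libraries, higher in 4 of 4 sets, and its part in the results for Cdh11, Cdh15 and Cdh22 was not tested. Thy1, which marks many fibroblasts, had 5 counts over the libraries of each condition.

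Markers of skeletal muscle, where M-cadherin is known, were near 0. Of 7 measured, 0 were tested, Myod1 and Myog had 0 counts in all 8 libraries, and the summed normalized level was 5.55 to 20.8 in Control and 13.2 to 28.5 in Notch3IC, against a Cdh15 level of 205 to 3220 in Notch3IC. Of 8 endothelial markers, 3 were tested, with a median log2 fold change of 0.51. Esam, the most abundant, was called lower (log2 fold change -1.64, edgeR adjusted p = 0.0596). Pecam1 (0.60) and Kdr (0.51) were not called, and both had higher levels in Notch3IC in 3 of 4 sets. Cldn5 had 0 counts, and the summed level, mostly Esam, was 585 to 1203 in Control and 181 to 510 in Notch3IC. Of 7 leukocyte markers, 2 were tested, and Csf1r was called higher, from 8.67 to 24.7 normalized counts (edgeR adjusted p = 0.0719). With 9, 10, 7 and 9 counts in the Control libraries, Csf1r would not have passed the filter on them alone. It was tested through the condition in which it was high. Cd68 (log2 fold change -0.40, not called) was the most abundant, the summed level was 57.5 to 129 in Control and 81.6 to 126 in Notch3IC, Cd3e had 0 counts, and Ptprc had 2 in all. Of 6 kidney tubule markers, 1 was tested and 0 called, Slc12a1 was the most abundant, Umod and Slc34a1 had 0 counts, and the summed level was 20.8 to 39.2 in Control and 34.7 to 49.0 in Notch3IC.

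Promoter sequences in RefSeq (GRCm38.p6, windows of 300 bases around the transcription start) were matched for 3 of the 10 genes, Cdh6, Cdh15 and Cdh22. The letters TGGGAA, the core of the Rbpj site, searched on both strands, were found in the window of Cdh6 and not in those of Cdh15 and Cdh22, and 25.6% of all 32851 windows hold them. The letters CACCTG, an E-box bound by Snail and Zeb factors, searched on both strands, were in none of the 3 windows and are in 20.2% of all windows. The windows do not cover distal elements.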

How the data were processed

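Polyadenylated RNA of 8 ID8 IP2 lines (4 Control, 4 Notch3IC) was sequenced as single-end reads. The deposited files, 1 for each library, hold raw read counts by gene symbol as the authors made them. The submitters' processing notes name mm9, TopHat, Cufflinks and DESeq without versions, and the strand setting is not given in the sources used here. Of 23284 symbols, 17359 had a count.

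From these counts, edgeR 4.0.16 in R 4.3.3 was used with TMM normalization, filterByExpr by condition and the robust quasi-likelihood F test. The model held condition alone, and p values were adjusted by Benjamini-Hochberg across 12430 genes. A normalized count is the count over its library's TMM-scaled size, times the mean of those sizes. Positions and lengths came from GENCODE M21 (GRCm38), matched by symbol, and no coordinates of the files' build were used. Exact permutation tests used SciPy 1.17.1, and figures Matplotlib 3.10.9. Depth of 15524262 to 28208072 counts limits precision for Cdh22 and the 4 untested members. The biological coefficient of variation was 26.3%, and 14.1% with the replicate block.

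Sets are matched pairs in the study's description, and deviations from the group means correlated within sets at 0.80, 0.40, 0.57 and 0.41, against -0.50 to 0.37 for crossed pairs. The study names no set term, so the block is an alternative. Further alternatives were DESeq2 1.42.0, scaling by RLE, by upper quartile or by library totals, other filters, thresholds and gene lengths, and leaving out each library or set. Leaving out whole sets for the Cdh2 to Cdh1 ratio, and the block for the marker lists, were added after the data were seen.

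Genes named were the 10 members, called genes of each list or else its most abundant, the 3 genes most correlated with called or leading members, and Notch3, Hey1, Heyl and Nrarp. Ctnnb1, Ctnnd1, Pvrl4, Cadm1, Cadm4, Klf4, Elf3, Mmp3, Adam10 and single markers were added after values were seen. Members and lists were chosen with earlier results of these data known.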

Additional observations from a re-analysis of the deposited data

Results flagged for a closer look

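In groups of 4 libraries, the highest or lowest library was set apart from the others by more than Dixon's 95% critical value in 8 of 54 groups searched. Chance sets apart about 1 group in 20, but 5 of the 8 are genes chosen for their correlation with a member over the same libraries, so the count cannot be set against that share. Most of these values, all in normalized counts, came from the Notch3IC library of Set 2. For Cdh3 that library had 8707, and the other Notch3IC libraries had at most 5766. It had 1908 for Itpk1 and 406 for Mal2, above the others, and 1143 for Tcf4, 759 for Irgq and 125 for Pde1b, below the others. The Control library of Set 2 had 181 for LOC434205, below the other Control libraries. The Control library of Set 3 had 70.8 for Notch3, and the other Control libraries had at most 42.0. The Notch3IC library of Set 2 was also the shallowest of the 8, with 15524262 counts, and had the lowest Notch3 level of the Notch3IC libraries. The part of either in these values was not tested.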

How the results depend on the processing

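The number of members called higher was 3 under 17 of 21 alternatives, 2 with at least 10 counts in every library or without Control replicate 3, and 0 without Set 3 or Set 4 (0 to 3 over all libraries and sets left out). Members called lower became 1 (Cdh3) with no fold-change limit. The replicate block gave the same directions and calls for the members, while the difference in Cdh3 share, -28.0 points, had p = 0.125 over 4 set differences (exact sign flips). Leaving out each library gave -35.4 to -25.1 points, with an exact permutation p of 0.0571, the smallest for 3 against 4. The Cdh2 to Cdh1 difference ranged from -0.16 to 1.31 and was reversed (-0.16) without Notch3IC replicate 1, as was the Cdh2 log2 fold change (-0.086). Without whole sets the Cdh2 to Cdh1 difference was 0.36 to 0.88. The log2 ratio of Cdh3 to Cdh2 in Control was 1.07 with the longest transcript or the coding length and 0.93 with no length, and in Notch3IC 0.24, 0.24 and 0.10. Without single libraries it was 1.73 to 1.97 and 0.67 to 1.23. Genes called in lists moved as follows. Further cadherins gave 1 with no fold-change limit. Tail partners gave 0 at an adjusted p under 0.05, 2 with no fold-change limit, and 0 to 1 when libraries or sets were left out. Nectins gave 1 with DESeq2, 3 with the replicate block, and 0 to 2 when libraries or sets were left out. E-cadherin factors gave 6 with DESeq2, 5 with no expression filter, 5 with the replicate block, and 0 to 6 when libraries or sets were left out. Cleavage and trafficking genes gave 0 at an adjusted p under 0.05, 3 with the replicate block, 3 with no fold-change limit and 0 to 2 when libraries or sets were left out. With the replicate block 4 mesothelial markers in place of 1 and 5 fibroblast and mural markers in place of 2 were called. Calls in the whole table were 1 higher and 0 lower without Set 3 and 0 and 0 without Set 4. With single libraries left out they ranged from 75 and 8 without Control replicate 3 to 702 and 305 without Notch3IC replicate 2, and they were 707 and 192 with DESeq2. The cause was not tested. Cdh15 could not be tested with at least 10 counts in every library.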
